A study of Mus musculus with 16 samples.

Results

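The respiratory chain and the mitochondrial ribosome are described here through 59 named genes of 8552 named in the authors' deposited table. They are the genes whose symbols begin with Nduf, Sdha to Sdhd, Uqcr, Cox4 to Cox8 or Atp5 (39 respiratory chain members) or with Mrpl or Mrps and a digit (20 mitochondrial ribosome members). That table names only genes whose log2 fold change was below 0 in Sin3A deficient against sufficient Th17 cells, so the members were chosen by a lower level there, which is not a result about them. Of the mouse genes in RefSeq whose symbols fit these patterns, 38 of 100 respiratory chain genes and 20 of 78 mitochondrial ribosome genes were among the members. The remaining member, Atp5l2-ps, is a pseudogene whose reads may be shared with Atp5l and are uncertain. The genes of these families that carry no name were not analysed here.

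The respiratory chain passes electrons from nutrients to oxygen through complexes I to IV of the inner mitochondrial membrane, and ATP synthase, also called complex V, uses the proton gradient that results. Most subunits are encoded in the nucleus, but a few core subunits are encoded in mitochondrial DNA and are made inside the organelle by a ribosome of its own, whose proteins are nuclear-encoded as well. T cells leaving quiescence are known to build mitochondria and to raise respiration. Several complex IV subunits exist as alternative isoforms that are characteristic of tissues such as muscle, heart or lung.

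The study used CD4 T cells, purified from mice about 2 months old on the C57BL/6 J background that carry 1 copy of Rosa26-CreERT2, a Cre recombinase switched on by tamoxifen and not restricted to a cell type, and floxed Sin3A alleles (Sin3AF/F). Sin3A holds together a corepressor complex that contains histone deacetylases. The cells were cultured for 6 days in IL-7, a survival cytokine for resting T cells, without tamoxifen (IL-7 sufficient) or with it (IL-7 deficient), and others went on to 3 days in conditions that polarize towards IL-17-producing helper T cells (Th17 sufficient and Th17 deficient). Each of the 4 groups held 4 poly(A) RNA libraries, in IL-7 sufficient cells BASAL955, BASAL957, BASAL959 and BASAL960, whose numbers return in the other groups (BASALTAM for IL-7 deficient, D3 for Th17 sufficient and D3TAM for Th17 deficient), and values below follow that order. All groups carry the Cre and the floxed alleles, and tamoxifen was given only to the deficient groups, so tamoxifen and deletion cannot be told apart. None of the 4 groups was kept without polarization for the further 3 days. Changes over polarization therefore cannot be told apart from those of added time in culture. Whether libraries with 1 number came from 1 mouse is not given in the labels, so p-values rest on a spread between libraries that may include technical repeats.

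Restored totals were 19751682 to 28622322 reads per library. Sin3a itself stood at 2524 ± 249 and 2211 ± 98.2 normalized counts in IL-7 sufficient and deficient cells and at 2106 ± 181 and 1774 ± 49.8 in the Th17 groups (SD, n = 4). Which exons are floxed is not given in the labels, and a count over the whole gene does not measure the deletion. Of 12 CD4 T cell markers 9 could be joined to values, and their sum ran from 91170.0 to 103400.0 normalized counts in IL-7 sufficient and 87320.0 to 93040.0 in IL-7 deficient libraries to 70620.0 to 75460.0 and 45100.0 to 48920.0 in Th17 sufficient and deficient ones. The summed CD8 T cell markers Cd8a and Cd8b1 ran from 430.3 to 638, 351 to 538, 231 to 519 and 113 to 196 in the same order of groups. The 2 genes moved in opposite directions over polarization. Mean Cd8a went from 70.3 to 203 in sufficient and 52.2 to 76.4 in deficient cells, and mean Cd8b1 from 449 to 164 and 370 to 93.6. Restored values of Cd8a did not meet the criterion for settled rows given below, so they are uncertain. The 3 of 6 B cell markers with values (Cd79a, Cd79b and Blk) summed to 311 to 1004, 125 to 209.9, 136 to 326 and 60.8 to 185, no marker with a value was at 0 in every library, and no myeloid or NK cell marker (0 of 6 and 0 of 3) could be joined. Both sums were thus small beside the CD4 T cell markers and moved with the groups, and their part in the results below was not tested. In RNA from bulk cells, a change in the share of cells that hold a transcript and a change in its amount per cell cannot be told apart.

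The library BASAL960 stood apart from the others of its group in these genes. For each library the median over the members of the log2 deviation from a member's mean over all libraries was taken. In the respiratory chain this was -0.24, -0.27, -0.27 and 0.06 in IL-7 sufficient libraries, with BASAL960 the high one. The IL-7 deficient libraries read -0.32, -0.29, -0.28 and -0.18. The Th17 sufficient libraries read 0.26, 0.35, 0.43 and 0.34, and the Th17 deficient ones -0.0028, 0.13, 0.16 and 0.21. The Th17 sufficient libraries therefore lay above all others, and the Th17 deficient libraries overlapped the IL-7 libraries only through BASAL960. That sufficient lay above deficient Th17 libraries follows from the choice of members and is not a result. For the mitochondrial ribosome the IL-7 sufficient libraries read -0.21, -0.12, -0.14 and 0.0095, again with BASAL960 highest. For the averaged polarization, the counts of each set that rose or fell, their medians and the read shares are given below with and without it. So are the counts of negative changes and the medians in the IL-7 comparison. Counts of members whose libraries do not overlap are given only with it.

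**Figure D1:**
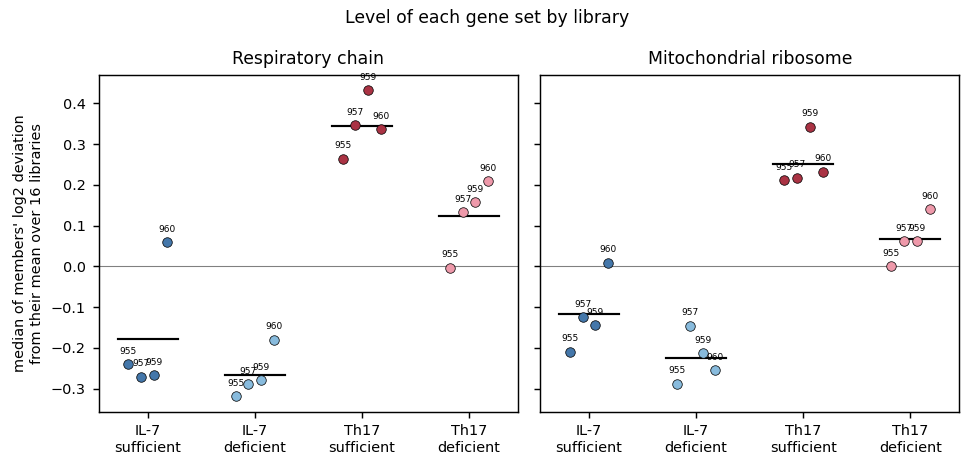
Median over members of the log2 deviation from each member's mean over 16 libraries, for 37 respiratory chain members (left) and 20 mitochondrial ribosome members (right), with 1 point per library labelled by its number and a line at the group mean. Th17 sufficient libraries are highest in both sets, and BASAL960 lies above the other IL-7 sufficient libraries. Members were named for a lower level in Th17 deficient cells, which sets the order of the Th17 groups.

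Which way the members moved when IL-7 cultures were polarized was asked with the mean of both Th17 groups minus the mean of both IL-7 groups. This average gives both Th17 groups equal weight, so the comparison of deficient with sufficient Th17 cells that chose the members does not enter it. Respiratory chain genes mostly rose. Of the 37 members with enough reads to test, 28 rose and 3 fell (limma on log2(normalized count + 1), adjusted p under 0.05 over 13591 table rows), against 35.4% of named genes that rose and 48.3% that fell. Their median log2 change was 0.42 (quartiles 0.17 and 0.94), beside -0.17 for all 6364 named genes tested and -0.059 for all rows. Among the 20 mitochondrial ribosome members 15 rose and 1 fell, with a median of 0.37 (quartiles 0.21 and 0.45).

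Values of the respiratory chain spanned the wider range, -0.38 to 3.29 against -0.60 to 1.04 for the ribosome. Without the tissue-restricted isoforms Cox4i2 and Cox7a1 the chain ran from -0.38 to 1.32, a width near that of the ribosome. Its quartiles, then at 0.15 and 0.86, stayed wider apart. A rise of at least 2-fold was seen in 8 of 37 respiratory chain and 1 of 20 mitochondrial ribosome members, where 16.9% of named genes rose that far. The 8 include the tissue-restricted isoforms Cox4i2 and Cox7a1 described below, and without them it was 6 of 35 (17.1%), near the share of named genes. All 8 Th17 libraries lay above all 8 IL-7 libraries for 16 respiratory chain and 5 ribosome members (20.6% of named genes). This count includes BASAL960, the high library of its group, and was not taken without it. In all 8 same-number pairs the Th17 library was the higher one for 22 and 13 members (27.4%). All 8 lay below for Ndufs7 and Mrps25 alone, where 29.7% of named genes did so. Respiratory chain members took 0.307% ± 0.0295 of all reads in IL-7 sufficient, 0.287% ± 0.0113 in IL-7 deficient, 0.508% ± 0.023 in Th17 sufficient and 0.46% ± 0.0142 in Th17 deficient cells (SD, n = 4). The mitochondrial ribosome members took 0.0752% ± 0.00391, 0.0721% ± 0.00126, 0.0955% ± 0.00287 and 0.0841% ± 0.0018 in the same order. Atp5b, the member with the highest counts, weighs most in the respiratory chain shares. Its mean normalized count was 12678 in IL-7 sufficient and 30945 in Th17 sufficient cells. Without BASAL960, the IL-7 sufficient shares were 0.293% ± 0.00787 and 0.0737% ± 0.00299 (SD, n = 3). Without it 29 respiratory chain members rose and 3 fell, and 15 and 1 ribosome members, with medians of 0.47 and 0.38. The difference between both sets was not tested, since the members were chosen with results known.

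**Figure D2:**
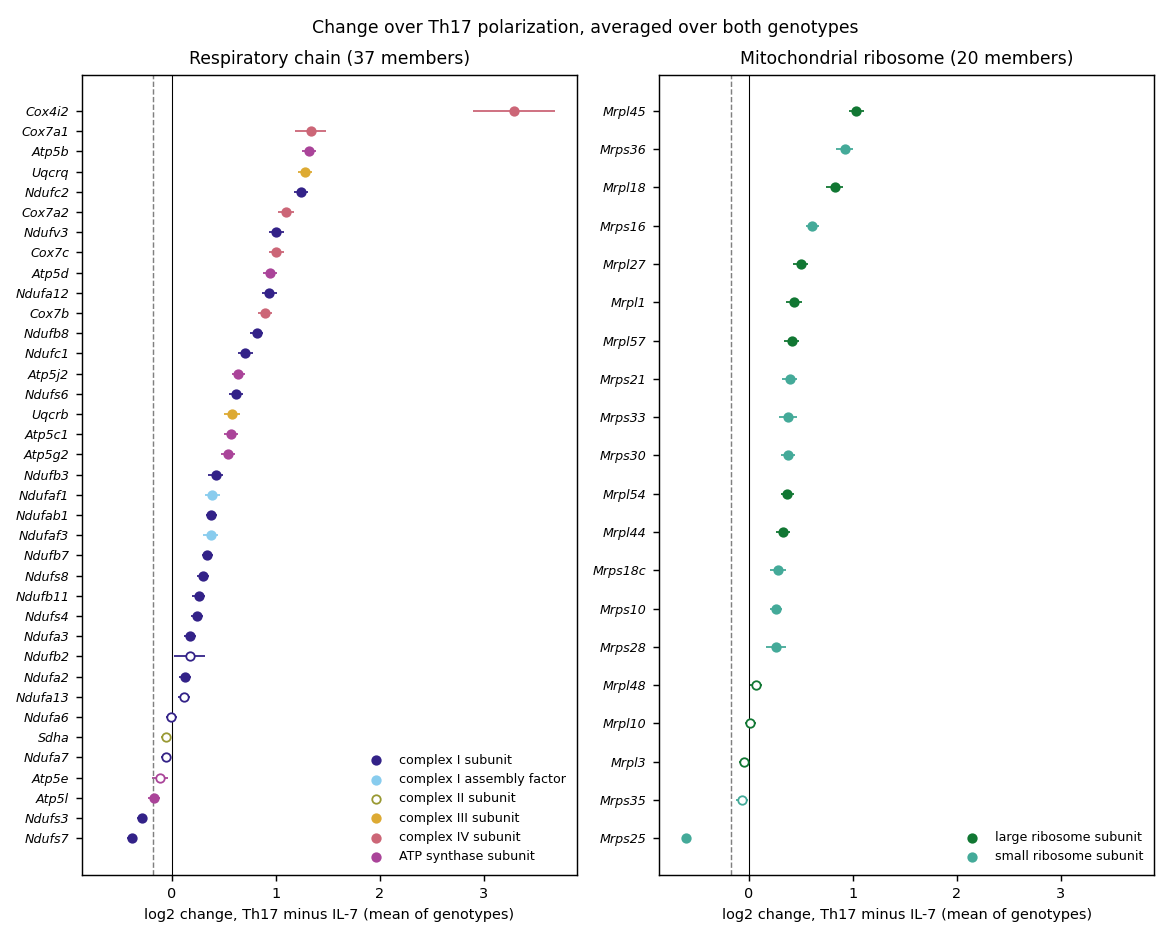
Log2 change of each tested member over polarization (Th17 minus IL-7, mean of both genotypes), coloured by complex or ribosomal subunit, with bars of 1 SE. Filled points passed the test and open points did not, the dashed line is the median of all named genes at -0.17, and most members lie to its right.

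Complex I, which takes electrons from NADH, held 20 tested subunits, of which 14 rose and 2 fell (median 0.28). Ndufc2, a small accessory subunit (ENSMUSG00000030647), read 975, 974, 934 and 1306 normalized counts in IL-7 sufficient and 886, 926, 964 and 1107 in IL-7 deficient libraries. After polarization it read 2417, 2434, 2725 and 2282 in sufficient and 2197, 2285, 2279.8 and 2405 in deficient libraries. All Th17 libraries were above all IL-7 libraries, and the log2 change was 1.24 ± 0.068 (SE; limma, adjusted p = 4.19e-12). The accessory subunit Ndufv3 rose by 1.01, from 1954 ± 204 and 1869 ± 166 in IL-7 sufficient and deficient cells to 4012 ± 459.9 and 3705 ± 486 (SD, n = 4). Ndufa12 and Ndufb8, accessory subunits as well, rose by 0.94 and 0.82, and their authors' log2 fold changes in Th17 cells were nearest 0 of the respiratory chain members, at -0.0042 and -0.0098 in the authors' deposited table.

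The subunits of complex I that fell were Ndufs7 and Ndufs3, both core subunits of the arm that reaches into the matrix. Ndufs7 (ENSMUSG00000020153) read 2239, 2169, 2051 and 1891 in IL-7 sufficient, 2009.8, 1947, 1988 and 1865 in IL-7 deficient, 1598, 1731, 1796 and 1576 in Th17 sufficient and 1337, 1458, 1502 and 1477 in Th17 deficient libraries. Every Th17 library was below every IL-7 library, with a log2 change of -0.38 ± 0.048 (SE; limma, adjusted p = 6.98e-07). Ndufs3 (ENSMUSG00000005510) changed by -0.29 ± 0.042 (SE; limma, adjusted p = 4.33e-06), with 1633 ± 67.8 and 1544 ± 42.4 in the IL-7 groups and 1473 ± 70.9 and 1150.3 ± 43.6 in the Th17 groups (sufficient, then deficient; SD, n = 4). Another core subunit of this arm, Ndufs8, rose (0.30, limma adjusted p = 7.37e-05), so the core subunits did not move one way. Of the others, Ndufb2, Ndufa13, Ndufa6 and Ndufa7 did not pass the test, at 0.17, 0.12, -0.0012 and -0.055. The assembly factors Ndufaf1 and Ndufaf3, which help to build complex I and are not part of it, rose by 0.39 and 0.38. The rise of Ndufaf1 was 0.65 in sufficient cells, against 0.13 in deficient ones, where it did not pass (limma adjusted p = 0.222). A smaller rise in deficient cells follows from the choice of members and is not a result.

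Complex II, which also belongs to the citric acid cycle, was represented by Sdha, its flavoprotein subunit, out of 4 subunit genes. Sdha (ENSMUSG00000021577) read 5302, 4896, 4757 and 4758 in IL-7 sufficient and 5139.5, 4799.9, 4805 and 4545 in IL-7 deficient libraries. In Th17 libraries it read 5212, 5099.5, 5354 and 4469 in sufficient and 4026, 4417, 4418 and 4678 in deficient cells. The stages overlapped, and its change of -0.055 ± 0.05 (SE; limma, adjusted p = 0.312) did not pass the test. Both complex III members rose. Uqcrq (ENSMUSG00000044894), a small subunit of this cytochrome bc1 complex, read 1456, 1636, 1512 and 2072 in IL-7 sufficient and 1522, 1414, 1433 and 1626 in IL-7 deficient libraries. It read 3689, 3916, 4387 and 4368 in Th17 sufficient and 3249, 3571, 3798 and 3805 in Th17 deficient libraries, all above the IL-7 libraries, a log2 change of 1.28 ± 0.069 (SE; limma, adjusted p = 2.94e-12). Uqcrb rose by 0.58.

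Complex IV, cytochrome c oxidase, held the members with the highest median (1.10), and 5 of its 5 tested subunits rose. Both values include Cox7a1 and Cox4i2, described below, and Cox4i2 had enough reads to test through the Th17 sufficient group alone. In deficient cells 4 of the 5 rose, with a median of 0.97. Cox7a2 (ENSMUSG00000032330), the isoform of subunit 7a found in most tissues, read 1191, 1344, 1242 and 1931 in IL-7 sufficient and 1276, 1289, 1239 and 1347 in IL-7 deficient libraries. It read 2813, 3025, 3149 and 2996 and 2640.5, 2650.4, 2734 and 3003 in Th17 sufficient and deficient libraries. The Th17 libraries were all above the IL-7 libraries although BASAL960 stood above its group, and the log2 change was 1.10 ± 0.077 (SE; limma, adjusted p = 1.38e-10). Cox7c and Cox7b, other small subunits, rose by 1.01 and 0.90.

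The isoforms known from muscle, heart or lung followed another pattern. Cox7a1 (ENSMUSG00000074218), the heart and skeletal muscle isoform of subunit 7a, read 16.1, 15.6, 15.2 and 18.6 in IL-7 sufficient and 19.96, 25.5, 25.7 and 20.8 in IL-7 deficient libraries. It read 123, 97.1, 91.3 and 126 in Th17 sufficient and 28.99, 25.004, 23.96 and 16.4 in Th17 deficient libraries. Only the Th17 sufficient libraries were high, and the deficient Th17 libraries overlapped the IL-7 ones. Its log2 change over polarization was 2.66 in sufficient and 0.017 in deficient cells, so the averaged value of 1.34 ± 0.15 (SE; limma, adjusted p = 1.02e-07) comes from the sufficient cells, and in deficient cells alone it did not pass (limma adjusted p = 0.945). Because the lower level in deficient Th17 cells gave Cox7a1 its name here, the difference between genotypes is a description.

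Cox4i2 (ENSMUSG00000009876), the isoform of subunit 4 known from lung, had 0 to 4 reads in each IL-7 library (5 reads in all in sufficient and 6 in deficient cells). Its normalized counts were 37.5, 37.8, 37.4 and 95.9 in Th17 sufficient and 4.39, 6.67, 6.71 and 6.03 in Th17 deficient libraries. Every Th17 library was above every IL-7 library, the sufficient ones far more so, with D3960 highest. Since Cox4i2 had enough reads to test only through Th17 sufficient cells, where it was high, its fitted log2 change is a description. That change was 3.29 (limma adjusted p = 2.4e-07) and depends on the pseudocount, at 1.97 with a pseudocount of 5 and 3.84 with 0.5. Cox6a2, the heart and muscle isoform of subunit 6a, was under the filter on low values and was not tested. It had 2 and 1 reads in all in IL-7 sufficient and deficient cells, 20.7, 12.3, 18.3 and 53.04 normalized counts in Th17 sufficient libraries and 2.64, 0.833, 7.67 and 1.72 in Th17 deficient ones. Reads of Cox6a2 were thus seen mainly in Th17 sufficient libraries, again with D3960 highest. Cox4i2 passed the filter through the Th17 sufficient group alone, and without Cox4i2 and Cox7a1 26 of 35 respiratory chain members rose, with a median of 0.39.

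**Figure D3:**
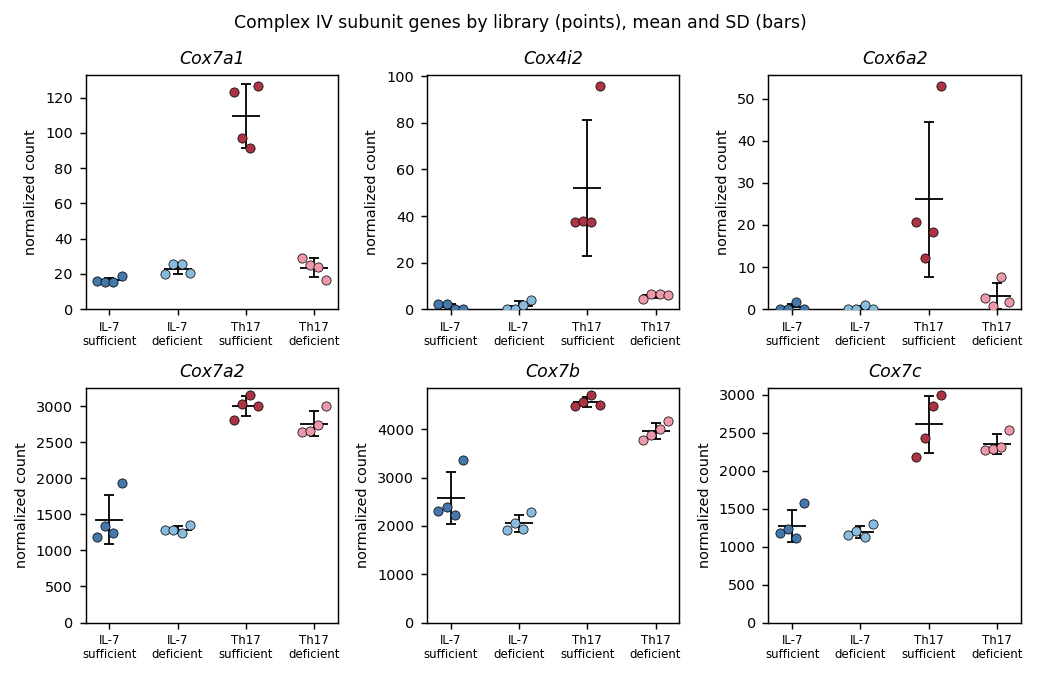
Normalized counts of 6 complex IV subunit genes in each library (points, in order of library number), with the mean and SD of each group (n = 4) and a separate linear axis per gene. The tissue-restricted isoforms in the upper row are high in Th17 sufficient libraries, while Cox7a2, Cox7b and Cox7c in the lower row are high in both Th17 groups.

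Of 7 tested ATP synthase subunits 5 rose and 1 fell. Atp5b (ENSMUSG00000025393), the catalytic beta subunit, read 11976, 12279, 11304 and 15152 in IL-7 sufficient and 11573, 11702, 11452 and 12907 in IL-7 deficient libraries. It read 28814, 31674, 34732 and 28560.1 in Th17 sufficient and 28047, 30254, 29510.0 and 33623 in Th17 deficient libraries. No Th17 library fell to the level of an IL-7 library, and the log2 change was 1.32 ± 0.064 (SE; limma, adjusted p = 6.83e-13). Its change was near equal in sufficient (1.29) and deficient cells (1.35). Atp5d and Atp5c1, subunits of the central stalk, rose by 0.95 and 0.57. Atp5g2, 1 of 3 genes for the subunit of the proton-carrying ring and the sole one listed, rose by 0.54, from 1172 ± 122 and 999.8 ± 107 in IL-7 sufficient and deficient cells to 1846 ± 161 and 1346 ± 77.8 (SD, n = 4). Atp5l, a subunit of the membrane part, fell slightly, by 0.17 on the log2 scale (limma adjusted p = 0.00993), a call that was lost without BASAL955 and the 3 libraries of the same number (adjusted p = 0.0584) or without BASAL957 and its 3 (0.0939), and within either genotype alone. Atp5e, another central stalk subunit, changed by -0.11 ± 0.078 (SE; limma, adjusted p = 0.179) and did not pass. The pseudogene Atp5l2-ps had 3 to 16 reads per library and was not tested.

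Proteins of the large subunit of the mitochondrial ribosome were 10 members, of which 7 rose and none fell (limma adjusted p under 0.05, with 7 of 10 at an unadjusted p under 0.05). Mrpl45 (ENSMUSG00000018882) read 610.1, 609.8, 622 and 801 in IL-7 sufficient and 613, 582, 565 and 650.2 in IL-7 deficient libraries. It read 1425, 1534, 1655 and 1536 in Th17 sufficient and 1169, 989, 973 and 1216 in Th17 deficient libraries. Every Th17 library was above every IL-7 library, and the sufficient ones were above the deficient ones. The log2 change was 1.04 ± 0.07 (SE; limma, adjusted p = 7.27e-11). Mrpl18 rose by 0.83, from 1221 ± 230.5 and 1164 ± 119 to 2166 ± 235 and 2043 ± 172 (sufficient and deficient at each stage; SD, n = 4). The rises of Mrpl27, Mrpl1, Mrpl57, Mrpl54 and Mrpl44 were smaller, at 0.50, 0.44, 0.41, 0.37 and 0.33. Mrpl48, Mrpl10 and Mrpl3 did not pass, at 0.066, 0.016 and -0.044.

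Of 10 members named for the small subunit, which reads the messenger RNA, 8 rose and 1 fell. Mrps36 (ENSMUSG00000061474), named for this subunit and now known as a component of the 2-oxoglutarate dehydrogenase complex, read 268, 248, 205 and 282 in IL-7 sufficient and 279, 254, 206 and 275 in IL-7 deficient libraries. It read 457, 481, 523 and 537 in Th17 sufficient and 429.5, 508, 436 and 440.1 in Th17 deficient libraries. The stages did not overlap, and its log2 change of 0.92 ± 0.085 (SE; limma, adjusted p = 7.3e-09) was the largest of the members with an Mrps symbol. The counts, medians and read shares given for the ribosome set include Mrps36 and were not taken without it. Mrps16 (ENSMUSG00000049960) rose by 0.61, to 1494 ± 89.6 in Th17 sufficient and 1031 ± 27.03 in Th17 deficient cells from 888 ± 125 and 749 ± 20.6 (SD, n = 4). Mrps21, Mrps33 and Mrps18c rose by 0.39, 0.38 and 0.28. Mrps25 was the ribosome member that fell. It read 2633, 2708, 2936 and 2495 in IL-7 sufficient and 2866, 2824, 2891 and 2787 in IL-7 deficient libraries, against 2063, 1781, 1773 and 1979 in Th17 sufficient and 1825, 1731, 1731 and 1739.9 in Th17 deficient ones. No Th17 library reached an IL-7 library, and the log2 change was -0.60 ± 0.046 (SE; limma, adjusted p = 5.13e-10).

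The promoters of the members were searched for known motifs of regulators of mitochondrial genes. RefSeq windows (GRCm38.p6) of 300 bases, from 250 bases before to 50 bases after the start, were at hand for 50 of 59 members, and both strands were searched for exact matches. CCGGAAG, a site of ETS factors such as GABP, was in 9 of 17 mitochondrial ribosome promoters (52.9%) and 6 of 33 respiratory chain promoters (18.2%), against 19.0% of 4159 named genes tested and 9.93% of all 27025 genes of the promoter table. The core of the NRF1 site, read here as gcgca, any base, then gcgc, was in 4 of 17 (23.5%) and 5 of 33 (15.2%), against 11.1% and 5.19%. ATGGCGGC, part of the YY1 site, was in 2 of 17 (11.8%) and 4 of 33 (12.1%), against 5.77% and 2.6%. Matches were also found in members that fell, CCGGAAG in Ndufs3 and Atp5l and ATGGCGGC in Ndufs7. CCGGAAG was in Mrpl3 and Mrpl48 as well, which did not pass the test over polarization. These shares are descriptions, base composition was not matched, and a match is not a bound site. The 250 bases before the start are printed below for 3 ribosome genes that rose and carry a match, for Mrps25, which fell, and for Atp5b and Cox7a1 of the respiratory chain, which rose on average, with matches in capitals. They lie at chr11:94653541-94653790, plus strand (Mrpl27), chr17:12916092-12916341, minus strand (Mrpl18), chr11:97315466-97315715, plus strand (Mrpl45), chr6:92184024-92184273, minus strand (Mrps25), chr10:128083057-128083306, plus strand (Atp5b) and chr7:30183921-30184170, plus strand (Cox7a1).
Mrpl27: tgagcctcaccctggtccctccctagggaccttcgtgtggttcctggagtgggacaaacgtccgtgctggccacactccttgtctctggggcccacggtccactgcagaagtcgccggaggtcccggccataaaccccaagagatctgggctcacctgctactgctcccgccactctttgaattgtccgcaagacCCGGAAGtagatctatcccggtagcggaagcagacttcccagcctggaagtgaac
Mrpl18: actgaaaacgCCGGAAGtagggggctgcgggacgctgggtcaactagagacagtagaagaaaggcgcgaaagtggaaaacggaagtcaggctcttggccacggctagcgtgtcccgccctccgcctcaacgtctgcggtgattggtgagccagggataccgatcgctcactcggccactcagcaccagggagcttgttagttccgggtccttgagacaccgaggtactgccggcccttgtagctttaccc
Mrpl45: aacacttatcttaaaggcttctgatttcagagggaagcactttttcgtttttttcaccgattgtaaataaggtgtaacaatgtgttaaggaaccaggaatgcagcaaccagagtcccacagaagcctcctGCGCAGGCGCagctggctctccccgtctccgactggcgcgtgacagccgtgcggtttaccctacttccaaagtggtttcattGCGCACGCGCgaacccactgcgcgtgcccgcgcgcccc
Mrps25: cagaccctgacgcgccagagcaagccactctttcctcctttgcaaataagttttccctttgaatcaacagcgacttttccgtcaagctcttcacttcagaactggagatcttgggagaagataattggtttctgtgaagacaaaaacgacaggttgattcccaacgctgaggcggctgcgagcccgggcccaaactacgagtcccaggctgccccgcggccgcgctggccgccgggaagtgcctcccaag
Atp5b: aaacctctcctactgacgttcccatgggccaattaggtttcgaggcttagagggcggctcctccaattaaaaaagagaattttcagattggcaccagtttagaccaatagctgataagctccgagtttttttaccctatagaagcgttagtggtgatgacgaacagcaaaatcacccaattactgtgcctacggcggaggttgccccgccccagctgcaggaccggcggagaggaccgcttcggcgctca
Cox7a1: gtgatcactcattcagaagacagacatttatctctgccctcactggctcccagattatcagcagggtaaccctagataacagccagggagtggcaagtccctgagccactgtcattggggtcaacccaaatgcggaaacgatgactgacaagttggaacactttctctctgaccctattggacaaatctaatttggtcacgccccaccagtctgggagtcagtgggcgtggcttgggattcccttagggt
The CCGGAAG match starts 55 bases before the start in Mrpl27 and 240 bases before it in Mrpl18. Mrpl45 holds matches to the NRF1 core that start 120 and 38 bases before its start. In the printed stretches of Mrps25, Atp5b and Cox7a1 none of these 3 motifs was found in these letters.

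Within each genotype the same direction prevailed. In sufficient cells 29 respiratory chain members rose and 2 fell (named genes: 39.1% and 37.3%), and in deficient cells 24 rose and 4 fell (named genes: 27.1% and 52.5%). For the mitochondrial ribosome 15 rose and 1 fell in sufficient cells, and 14 and 1 in deficient cells. The medians were 0.60 and 0.36 for the respiratory chain and 0.39 and 0.29 for the ribosome, in sufficient and deficient cells. Each of these comparisons contains 1 of the Th17 groups that chose the members. That the values are lower in deficient cells follows from the choice of members and is not a result. Ndufa7, an accessory subunit of complex I chosen for description after its values were seen, had changes of opposite sign, given without a test for that reason. It read 2026, 2159.8, 2044 and 2235 in IL-7 sufficient and 2395, 2317, 2426 and 2601 in Th17 sufficient libraries, a log2 change of 0.20. In deficient cells it read 1945, 1948, 1961 and 1958 in IL-7 and 1580.2, 1534, 1666 and 1517 in Th17 libraries, a change of -0.31. Each sufficient Th17 library was above every IL-7 library and each deficient one below.

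Whether the members differed before polarization was asked by comparing deficient with sufficient IL-7 cells. Libraries of these cells played no part in the naming of genes, but the members were chosen with earlier results of these data known. No member passed the test in either set (limma adjusted p under 0.05, fit without a replicate block), where 4.23% of named genes did, and 5 respiratory chain and 2 ribosome members had an unadjusted p under 0.05 (18.1% of named genes). With voom weights on the restored reads no member passed either. The log2 changes were small, and below 0 in 33 of 37 respiratory chain members (median -0.09) and 18 of 20 ribosome members (median -0.11), where 59.8% of named genes were below 0. Without BASAL960 the changes were below 0 in 20 of 37 and 16 of 20 members (61.9% of named genes), so the count for the respiratory chain rested on this library. The medians were then -0.032 and -0.06, nearer 0.

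The lowest IL-7 value belonged to Cox7b (ENSMUSG00000031231), which read 2316, 2397, 2231 and 3371 in sufficient and 1912, 2065, 1944 and 2298 in deficient libraries. The groups overlapped through BASALTAM960, and BASAL960 was far above its group. The log2 change was -0.31 ± 0.10 (SE; limma, adjusted p = 0.0887). With the library number as a replicate block Cox7b passed (limma adjusted p = 0.0383), which made it the 1 respiratory chain member called lower, and it also passed without BASAL960 and the 3 libraries of that number (-0.23, limma adjusted p = 0.0393). Mrps16 changed by -0.23 (limma adjusted p = 0.137), from 888 ± 125 to 749 ± 20.6 (SD, n = 4), and among the alternatives run passed only without BASAL959 (-0.33, limma adjusted p = 0.0203). Cox7a1 lay on the other side of 0, at 0.46 ± 0.21 (SE; limma, adjusted p = 0.246), and all 4 deficient IL-7 libraries were above all 4 sufficient ones.

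In Th17 cells the deficient level of every member was below the sufficient one by the way the genes were named, and the sizes are given as a description. The median log2 difference was -0.19 for the respiratory chain and -0.20 for the ribosome, beside -0.39 for all named genes tested. The groups did not overlap for 15 of 37 respiratory chain and 5 of 20 ribosome members, where 45.8% of named genes did not. The authors' deposited table gives an adjusted p under 0.05 for 17 of 39 and 5 of 20 members, and for 51.1% of its genes. Its lowest log2 fold changes among the members were -3.13 for Cox4i2, -3.04 for Cox6a2, -2.21 for Cox7a1 and -0.91 for Atp5l2-ps. The first 3 of these are the tissue-restricted complex IV isoforms, and the last is the pseudogene with few reads.

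Among the ribosome members the authors' lowest values were -0.54 for Mrps16, -0.50 for Mrpl45, -0.48 for Mrpl57 and -0.26 for Mrps33. Mrpl57 read 1101, 1398, 1623 and 1325 in sufficient and 948, 978, 1019 and 962 in deficient Th17 libraries, without overlap. Nearest the limit of 0 were, in the respiratory chain, Ndufa12 (-0.0042) and Ndufb8 (-0.0098) and, in the ribosome, Mrpl3 (-0.005) and Mrpl44 (-0.033), and genes on the other side of 0 carry no name. Ndufa7, at -0.63, and Atp5e, at -0.55, followed the complex IV isoforms among the tested respiratory chain members. Atp5e read 2679, 2479.7, 2953 and 2928 in sufficient and 1632, 1766, 2013 and 2135 in deficient Th17 libraries. In IL-7 cells the same members stood at -0.11 and -0.19.

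**Figure D4:**
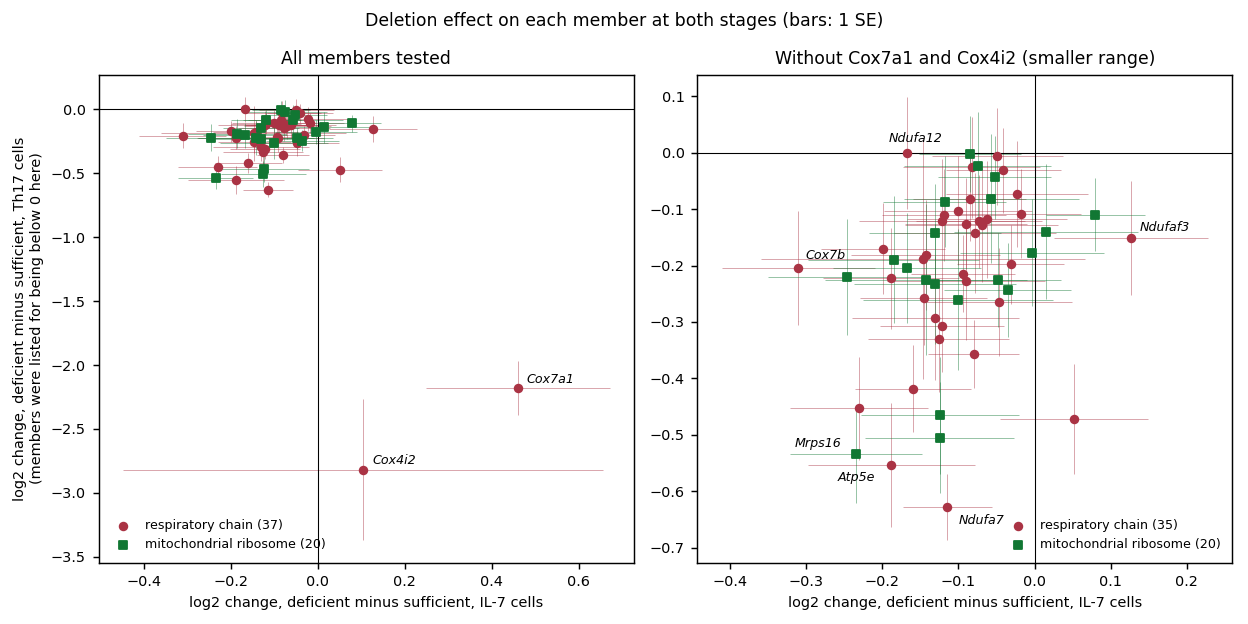
Log2 change of each tested member, deficient minus sufficient, in IL-7 cells (horizontal) and in Th17 cells (vertical), with bars of 1 SE, for all members (left) and without Cox7a1 and Cox4i2 (right). Members were listed for being below 0 on the vertical axis, and 33 of 37 and 18 of 20 lie below 0 on the horizontal axis (20 and 16 without BASAL960), where none passed the test of the fit without a block.

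Lists of other named mitochondrial genes are read against the same shares of named genes over polarization, 35.4% higher and 48.3% lower, and none of their counts is a result particular to a list. Of 44 listed genes of mitochondrial translation and ribosome assembly 15 were tested, with 6 higher and 6 lower (median -0.033). The aminoacyl-tRNA synthetase genes Tars2, Sars2, Aars2 and Vars2 fell, by 0.75, 0.45, 0.29 and 0.27 on the log2 scale, and Cars2 and Fars2 rose, by 0.37 and 0.21. Dap3, Chchd1 and Gadd45gip1, which encode mitochondrial ribosome proteins without an Mrp symbol, rose by 0.36, 0.50 and 0.35, while Aurkaip1, of the same kind, did not pass (-0.054). Sars2 was the 1 gene of this list that fell in deficient IL-7 cells (-0.33, limma adjusted p = 0.0279), a call that was lost without BASAL957, BASAL959, BASAL960, BASALTAM955, BASALTAM959 or BASALTAM960, without the libraries of any 1 number, and under scaling by total reads.

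Among 11 tested assembly factors of the respiratory chain outside the symbol patterns 3 rose and 5 fell (median -0.10). Sco1, a copper chaperone for complex IV, rose by 1.62 ± 0.11, and Cox20 and Atpaf1, assembly factors of complex IV and ATP synthase, changed by -0.76 ± 0.05 and -0.76 ± 0.085 (limma adjusted p = 5.03e-11, 4.96e-11 and 1.08e-07). Of 10 tested regulators of mitochondrial genes and DNA 3 rose and 5 fell. Nrf1 and Yy1, factors for the motifs above, fell by 0.29 and 0.19 on average. Nrf1 stood at -0.06 in sufficient (limma adjusted p = 0.499) and -0.53 in deficient cells (6.34e-06), and Yy1 passed in neither alone (limma adjusted p = 0.153 and 0.0521). Genes of these lists too carry a name only if lower in deficient Th17 cells. A deeper fall in deficient cells follows from that naming and is not a result. Gabpa, the DNA-binding subunit of GABP, did not pass (-0.027), and its partners Gabpb1 and Gabpb2 moved in opposite directions (0.47 and -1.16). Of 8 tested protein import genes 4 rose and 3 fell, and with a mean count of at least 50 only 1 fell among the 6 left to test. In single genotypes 1 assembly factor rose in deficient cells and 3 regulators fell in sufficient cells. These lists cover only their named genes, 11, 16, 10 and 8 of 34, 44, 26 and 36 for assembly, translation, regulators and import.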

How the data were processed

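Poly(A) RNA of 16 libraries was sequenced. The submitters' processing notes list Trim Galore 0.4.4, STAR 2.6, featureCounts, edgeR, DESeq2 and the build NCBIM37. The authors' deposited table holds, for 8552 genes, an adjusted p-value and a log2 fold change with an SE (deficient against sufficient Th17 cells), and 17850 rows of normalized counts, which are counts divided by a size factor. Names and rows stand side by side in different orders, and the values show that the normalized counts had lost their decimal points.

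Each library's values were whole reads times 1 step (99.993% of nonzero values, within a relative tolerance of 6e-10 of the digits), which gives reads up to a power of 10. A model of the spread among the libraries of each group then set the power, which raised 8.94% of values. Rows with a posterior of at least 0.95 in every group counted as settled (14567, 81.6%). A name was given to the row from which both of the authors' values came out within 1e-06 (1e-07 for next-best powers, a limit set after decoys had been tried), the next row differing at least 20 times more, and whose sum over these libraries was at most 24 times the authors' mean. Of 8552 names 7724 (90.3%) were joined, and 5 of 1000 decoys. All 59 members were joined on first-choice powers and settled, with 10.8% of their values raised.

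Settled rows with a mean of at least 10 (13591) were tested with limma 3.58.1 (R 4.3.3, trend and robust) on log2(normalized count + 1) in 1 model of 4 groups, with Benjamini-Hochberg adjustment and a threshold of 0.05. Fold changes on this scale understate those of low genes, and the levels are relative to each library's size factor. On simulated data 64 of 100 rows changed 1.5-fold and 95 of 100 changed 2-fold were recovered in the IL-7 comparison (13604 rows), 13 of 172 calls were false, 16262 of 16296 settled rows were exact and 999 of 999 joined names were right. Simulation started from restored values, so an error made there counted as right. The members and lists were chosen with earlier results of these data known. Results of 1 further list are not reported here. Genes described with values were the 8 largest rises and up to 4 largest falls of each set among those past the threshold and of 1 sign in every number and genotype, members past the threshold in IL-7 cells, the 4 lowest and 2 highest of the authors' fold changes, isoform sets and complex II, and Ndufs3, Ndufa7, Cox7b and Atp5e, whose values had been seen, as had those of the further members named beside them. Same-numbered IL-7 libraries deviated together (correlations 0.13 to 0.481, all above 0.1), so numbers may pair them. The main fit has no block, and the blocked value stands beside the result it changes. Of 20 other same-number correlations 11 passed 0.1. Alternatives covered the pseudocount, scaling, filter, voom weights, replicate block, unsettled rows, single genotypes and each library or number left out.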

Additional observations from a re-analysis of the deposited data

Results flagged for a closer look

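In 15 of 133 groups of 4 libraries examined for the described members, 1 library lay so far from the other 3 that its gap took most of the group's range (Dixon's criterion at 95%), which chance does in about 1 of 20 groups. BASAL960 was the high one for Cox7b (3371 normalized counts, others 2231 to 2397), Ndufc2 (1306, others 934 to 975), Ndufa12 (859.7, others 648 to 679), Mrpl45 (801, others 609.8 to 622) and Mrps21 (929, others 689 to 706). Among Th17 sufficient libraries D3960 was high for Cox4i2 (95.9, others 37.4 to 37.8) and low for Mrpl3 (1137, others 1323 to 1339.6), and D3955 was high for Mrpl44 (1032, others 765 to 804).

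Among Th17 deficient libraries D3TAM957 was high for Mrpl44 (883, others 807 to 817) and Mrps36 (508, others 429.5 to 440.1) and low for Mrps33 (217, others 282 to 285). D3TAM955 was high for Mrps25 (1825, others 1731 to 1739.9) and low for Ndufv3 (2983, others 3877 to 4032), and D3TAM960 was high for Ndufa12 (1419, others 1226 to 1253) and Ndufb8 (1947, others 1748 to 1758).

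Over polarization Ndufa7 was higher in all 4 sufficient numbers (log2 change 0.20) and lower in all 4 deficient numbers (-0.31), a difference of 0.514. The difference was not tested, since it contains the comparison that chose the members.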

How the results depend on the processing

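Over polarization 43 of 47 called members kept the call under all 29 alternatives that use both genotypes and 41 under all 31. Atp5l, Mrps28, Ndufa2 and Ndufa3 lost it under some of the 29, and Cox7a1 and Ndufaf1 in deficient libraries alone. Mrpl48 and Ndufa13 gained a call under some of the 29, and Atp5e (-0.30) in deficient libraries alone. Lower values in deficient libraries follow from the choice of members and are not a result. Leaving out libraries gave 26 to 29 respiratory chain members higher and 2 to 3 lower (median 0.38 to 0.47), and 14 to 15 ribosome members higher with 1 lower (median 0.33 to 0.38). The median was 0.60 for the respiratory chain in sufficient libraries alone and 0.29 for the ribosome in deficient ones. Ndufa7 (-0.055 on average) turned to 0.20 in sufficient libraries alone, a gene chosen for this pattern and given without a test. In IL-7 cells leaving out libraries gave 0 to 1 members lower in each set, with medians of -0.13 to -0.032 and -0.14 to -0.054.

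With the replicate block 1 respiratory chain member (Cox7b) was called lower in IL-7 cells and 0 ribosome members, and over polarization 29 respiratory chain members rose and 3 fell, and 15 and 1 ribosome members. In Th17 cells scaling by the upper quartile gave medians of -0.32 and -0.33, a scaling that moved the median of all rows from -0.0088 to -0.14, and leaving out libraries gave -0.24 to -0.16 and -0.22 to -0.15. The causes of these shifts were not tested. Depth limits Cox6a2, Cox4i2 and Atp5l2-ps, whose libraries held as few as 0, 0 and 3 reads.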

Other observations

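Complex IV also has subunits encoded in mitochondrial DNA, and 1 of them, mt-Co1, carried a name and was matched to a row with high counts. It stood at 118152 ± 16262 normalized counts in IL-7 sufficient (SD, n = 4) and 173408 ± 11948 in IL-7 deficient cells (SD, n = 3, as 1 value was not a whole number of reads and was left out). In Th17 cells it stood at 84987 ± 26487 in sufficient and 78737 ± 25506 in deficient libraries (SD, n = 4). The Th17 libraries ran from 61376 to 121953, and the 3 deficient IL-7 libraries with a value from 164402 to 186963, above all others. The Th17 means of this mitochondrially encoded subunit were thus below the IL-7 means, with overlap in sufficient cells, while those of the nuclear-encoded Cox7a2, Cox7b and Cox7c were above. It was chosen after its values were seen and was not tested, and capture by poly(A) tails need not reflect the level of mitochondrial transcripts. Because of the value left out, the row of mt-Co1 did not count as settled and took no part in the join described above. Its values are therefore uncertain.

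Some named mitochondrial genes outside the complexes moved further than most members over polarization. Mterf3, a factor known to act on mitochondrial transcription and ribosome assembly, changed by -1.33 ± 0.068 (limma adjusted p = 1.56e-12), and Ssbp1, which binds single-stranded mitochondrial DNA, by -0.66 ± 0.047 (limma adjusted p = 1.39e-10). Pam16, part of the import motor, rose by 1.14 ± 0.10, and Mtrf1, a release factor of mitochondrial translation, by 1.13 ± 0.13 (limma adjusted p = 2.85e-09 and 1.22e-07). These 4 were picked from the lists after their values were seen.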
